A study of Mus musculus with 98 samples.

Results

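Livers of chimeric mice held very different amounts of human RNA, and the level of mouse genes was compared along that range. The 15 livers repopulated with human hepatocytes (Hu livers) are the samples used, of 98 samples in the series, and the features are the 14751 of 19689 mouse genes that passed a filter on low counts. The livers were chosen by label and grouped by the human share, the percent of all counts of a liver that lay in human rows. Mouse gene levels were fitted as a trend on the human share, and compared between the 7 livers with a human share of 60% or more and the 8 livers under 60%. Both fits were adjusted for the time of day. The share sets the order and grouping of the livers and is given as a description, without a test.

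All mice were FRGN males of 10 weeks, that is Fah-/-, Rag2-/-, Il2rg-/- animals crossed to the non-obese diabetic strain. They received transplanted hepatocytes by injection into the spleen, cycles of the drug nitisinone (NTBC), sulfamethoxazole with trimethoprim, dextrose in the drinking water and a high energy diet. Hu livers received human hepatocytes, and 12 Mu livers, which carry the same host alleles, received murine hepatocytes and serve as reference values outside the fits. Livers were taken at Zeitgeber times (ZT) 2, 6, 10, 14, 18 and 22, and the series asks how hepatocyte clocks take part in setting the timing of daily rhythms. The labels state that Hu mice were selected for over 70% repopulation, and in these counts the human share was 70% or more in 4 of 15 Hu livers. A share of counts is not a share of cells, and the transplanted cells replace hepatocytes only, so the host keeps its own other liver cells and whatever hepatocytes remain.

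Hepatocytes make up most of the liver's mass and secrete albumin and most other plasma proteins. Between the plates of hepatocytes lie sinusoidal endothelial cells, which scavenge from the blood and secrete Wnt and bone morphogenetic protein signals, stellate cells, which store vitamin A and lay down collagen when activated, and Kupffer cells, the resident macrophages. In a mouse without Fah, an enzyme of tyrosine breakdown, host hepatocytes are damaged when nitisinone is withdrawn and are replaced by the transplanted cells. In bulk RNA, fewer cells of a type and less RNA per cell cannot be told apart.

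The human share of Hu livers ran from 15.9% in ZT 2 replicate 1 to 93.1% in ZT 18 replicate 3. It had a median of 47.6% in the livers under 60% and of 73.9% in the others, and the livers nearest the threshold stood at 58.7% and 65.3%. In Mu livers, where no human cells were given, the share was 0.00592 to 0.0204%. For the lowest and the highest share the 95% Wilson intervals, which cover counting error only, ran from 15.856 to 15.870% and from 93.065 to 93.075%. Hu libraries held 22.95 to 122.2 M counts in all (1 M is 1000000 counts). Mouse counts were 87.9 M in the liver with the lowest share and 7.70 M in the one with the highest, and ZT 22 replicate 2 had 10.9 M at a share of 52.5% in a library of 22.95 M counts. Time was unevenly spread: all 4 livers of ZT 10 and 14 were at 60% or more and both of ZT 22 were under 60%, while ZT 2, 6 and 18 each had 2 livers under and 1 above. Fah itself was counted at 15.8, 21.8 and 35.8 (lowest, median and highest) per M mouse counts in livers under 60% and at 6.23, 21.5 and 29.6 in the others, against 442 to 687 in Mu livers, so all Hu livers were below all Mu livers.

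**Figure D1:**
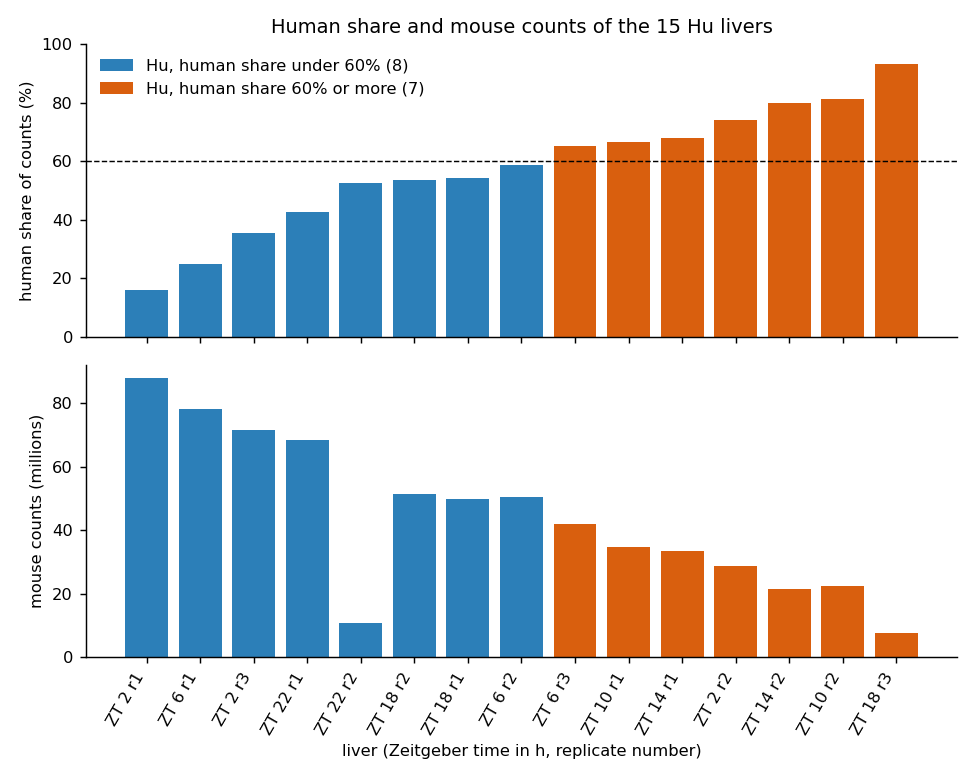
Human share of counts in percent (top) and counts in mouse rows in M (bottom) for each Hu liver, ordered by share, with the 60% line dashed. Shares run from 15.9 to 93.1%, and mouse counts run from 87.9 M at the lowest share to 7.70 M at the highest, with ZT 22 replicate 2 low for its share at 10.9 M.

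Mouse gene levels were given as counts per M mouse counts (CPM), so each level is relative to the mouse total of its own liver. The CPM of a gene can therefore rise where the counts of other mouse genes are lower. The slope is the log2 change in that level per 10 percentage points of human share. By edgeR's quasi-likelihood test, 3239 of 14751 genes (22%) rose with the human share and 2701 (18.3%) fell, at a Benjamini-Hochberg adjusted p under 0.05, and the median slope over all genes was -0.0098. In the comparison of the 2 groups of livers, 1613 genes (10.9%) were higher at 60% or more and 556 (3.77%) were lower. The levels of the groups did not overlap for 280 genes that were higher (1.9%) and for 19 that were lower (0.129%). These levels are CPM without the TMM scaling used in the fits. Without that scaling the group comparison called 3284 genes higher and 180 lower. All 2102 genes called in both comparisons had the same direction in both. The labels do not say whether replicates are separate animals, so p-values measure the spread between these livers. Leaving out ZT 18 replicate 3, the liver with the highest share and the fewest mouse counts, lowered the trend calls to 3405, and leaving out ZT 2 replicate 2 lowered them to 3947. The group comparison by edgeR made 0 calls without either of them, with 3320 and 3208 genes at an unadjusted p under 0.05. It made 316 calls without ZT 6 replicate 1, 558 without ZT 18 replicate 1, 1055 without ZT 18 replicate 2, 1427 without ZT 10 replicate 2, 3827 without ZT 14 replicate 1 and 3884 without ZT 6 replicate 2. Of the trend calls 54.5% were higher, against 90.1% without TMM scaling (median slope of all genes 0.092) and 0.731% when levels were set against the counts of both species (median slope -0.31). Without TMM scaling 6654 of 14751 genes rose and 735 fell. Against the counts of both species 83 of 14755 genes rose and 11279 fell. On that last scale the share itself sets the mouse total, so counts of calls on it are given only to show how they depend on scaling. Slopes are on the TMM scale of mouse counts and adjusted for time, while group medians and ranges are CPM with neither. A median and a slope can therefore run in different directions. The counts of list members that rose or fell below are to be read beside the 22% and 18.3% of all genes. Counts of members higher or lower in the group comparison are to be read beside the 10.9% and 3.77% of all genes. Member counts without TMM scaling or against the counts of both species are to be read beside the all-gene counts of the same scale.

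Stellate cell genes rose together. All 12 members of the list passed the filter and rose with the human share, with a median slope of 0.45. All 12 were higher in the livers of 60% or more. Against the counts of both species 6 rose and 0 fell, beside 83 and 11279 of all 14755 genes. Summed over the list, the level was 589.7, 1201 and 1538 CPM (lowest, median and highest) in the livers under 60% and 1534, 2892 and 9322 CPM in those of 60% or more. Mu livers had 462, 502 and 600.4 CPM. The ranges of the Hu groups touched only at their ends, where ZT 22 replicate 2 and ZT 14 replicate 1 stood at 1538 and 1534 CPM. Without ZT 18 replicate 3, 11 of 12 still rose.

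Lrat, which makes the retinyl esters that stellate cells store, had the smallest adjusted p of the list. Its levels were 28.7, 91.5 and 145 CPM under 60% and 154, 335 and 979 CPM at 60% or more, so the groups did not overlap, and its slope was 0.58 (SE 0.045, adjusted p = 1.7e-05). Between the groups it differed by 1.99 log2 (SE 0.34, adjusted p = 0.015). Colec11, a collectin, went from a median of 78.95 to 194 CPM, and Ecm1, an extracellular matrix protein, from 157 to 499 CPM, both without overlap. Rgs5, a regulator of G protein signalling, and Hand2, a transcription factor of stellate cells, also did not overlap, with slopes of 0.47 and 0.45. Reln, which encodes the secreted protein reelin, rose less steeply (slope 0.28, adjusted p = 0.0093), and without ZT 18 replicate 3 its adjusted p was 0.062.

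**Figure D2:**
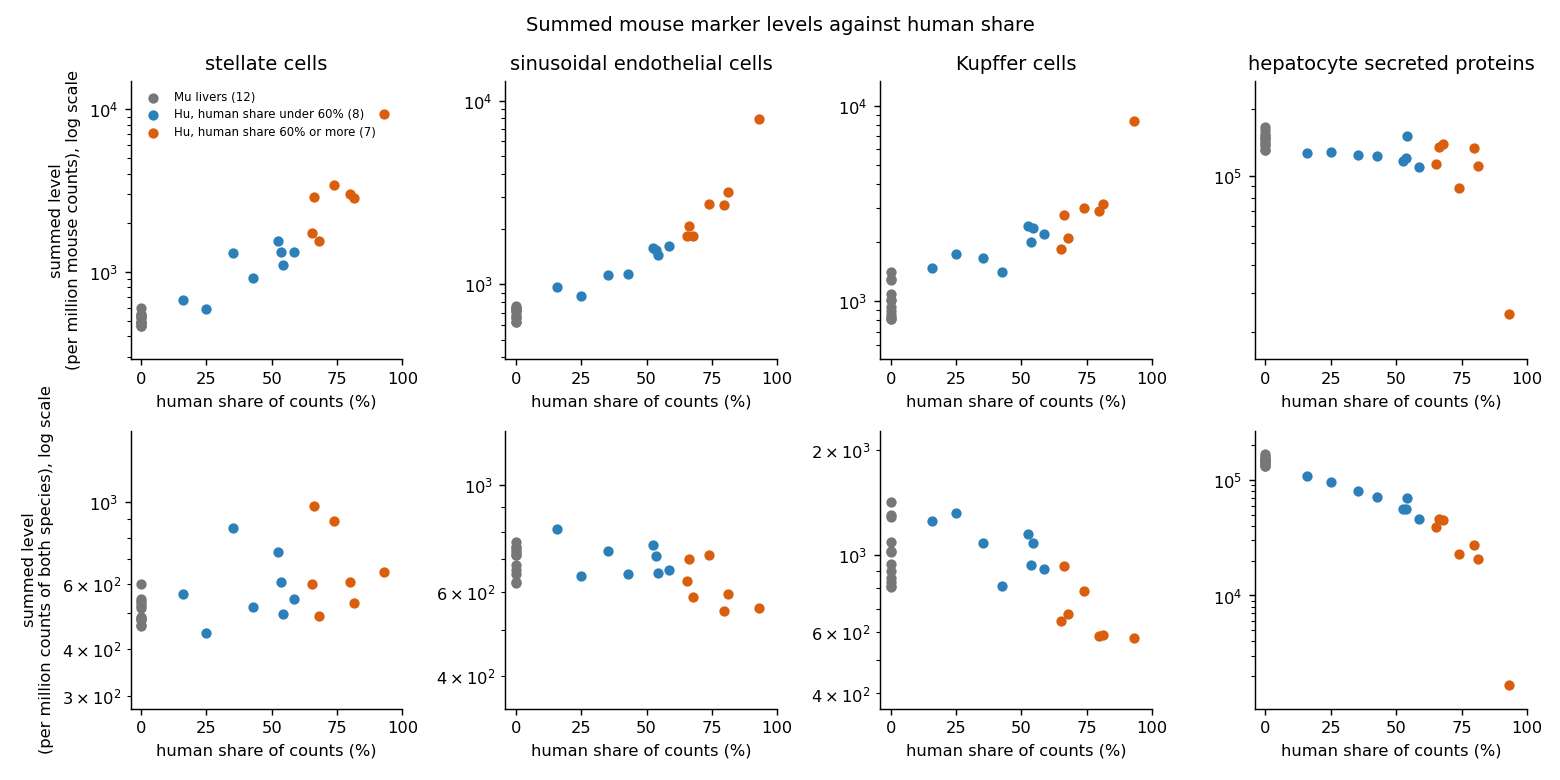
Summed mouse level of 4 marker lists against human share in percent, per M mouse counts (top) and per M counts of both species (bottom), on log axes, 1 point per liver and Mu livers drawn at 0%. Stellate, endothelial and Kupffer sums climb along the top row, while the hepatocyte sum is lowest in ZT 18 replicate 3, and in the bottom row the endothelial sum stays between 548 and 811 in Hu livers.

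Collagen and myofibroblast genes moved in the same direction. All 14 of the list rose with the share, with a median slope of 0.46, and 3 rose against the counts of both species, and 8 were higher in the group comparison. In the trend 10 rose without ZT 2 replicate 2, 11 without ZT 18 replicate 3 and 5 with a replicate block. Decorin (Dcn), a matrix proteoglycan, had 172, 422 and 498 CPM under 60% and 608, 1134 and 3608 CPM at 60% or more, with a slope of 0.48 (SE 0.049, adjusted p = 5.1e-05), and its groups did not overlap. Periostin (Postn) likewise did not overlap, at medians of 44.6 and 90.9 CPM. Col3a1 and Col1a1, chains of the fibrillar collagens, had medians of 164 and 488 CPM and of 67.4 and 165 CPM, with overlapping groups, and Col5a1 had a slope of 0.44. Col1a1 rose at an adjusted p of 0.0097, which became 0.056 without ZT 2 replicate 2. Acta2, the smooth muscle actin of activated stellate cells, was low throughout, at 2.87, 6.89 and 14.6 CPM under 60% and 7.59, 15.7 and 70.9 CPM at 60% or more, and rose with a slope of 0.43. Timp1, an inhibitor of matrix proteases, rose at an adjusted p of 0.02 that was 0.118 without ZT 2 replicate 2, 0.064 without ZT 6 replicate 1 and 0.061 without ZT 18 replicate 3.

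Vitamin A is stored by stellate cells and its acid form acts on genes through retinoic acid receptors. In a list of 18 genes for retinoid handling and response, chosen after the data were seen, 14 passed the filter, 5 rose and 3 fell, with 1 falling without ZT 2 replicate 2. Against the counts of both species 1 rose and 7 fell. The median slope was 0.039, near that of all genes. Beside Lrat, the receptor gene Rarb rose from 6.33, 10.96 and 15.6 CPM under 60% to 13.1, 24.6 and 57.3 CPM at 60% or more (slope 0.31, SE 0.028, adjusted p = 3.1e-05). Its groups overlapped over a narrow range, from 13.1 to 15.6 CPM. Cyp26b1, an enzyme that breaks down retinoic acid, rose from a median of 32.3 to 96.8 CPM (slope 0.48). Cyp26a1, its relative with the same activity, did not pass the test (slope -0.0012, SE 0.14), at medians of 12.9 and 16.7 CPM. Rbp4, the hepatocyte carrier of retinol in blood, fell at an adjusted p of 0.046, which was above 0.05 in 10 of the 15 fits that each left out 1 liver.

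The promoters of Rarb and Cyp26a1 are printed because they hold the same repeat, of the form known from retinoic acid response elements, while the genes differed in slope. A direct repeat, GTTCA and again GTTCA with any 6 bases between them, searched on both strands, was found in 25 of 32851 RefSeq promoters of 300 bases in the GRCm38.p6 table (0.0761%). Of the 14 retinoid genes tested, 13 have a promoter there and these 2 hold the repeat. Each sequence runs from 250 bases before the transcription start to 50 after it, on the strand of the gene, and the capitals mark the repeat. That of Rarb is at chr14:16575427-16575726 on the minus strand, with the repeat at -52 to -37, and that of Cyp26a1 at chr19:37697558-37697857 on the plus strand, with the repeat on the opposite strand at -32 to -17.
Rarb: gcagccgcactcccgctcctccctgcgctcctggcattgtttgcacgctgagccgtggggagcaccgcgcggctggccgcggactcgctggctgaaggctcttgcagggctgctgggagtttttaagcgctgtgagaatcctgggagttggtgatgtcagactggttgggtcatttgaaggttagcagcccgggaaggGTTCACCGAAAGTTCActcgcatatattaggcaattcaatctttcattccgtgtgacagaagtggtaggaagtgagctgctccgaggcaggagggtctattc
Cyp26a1: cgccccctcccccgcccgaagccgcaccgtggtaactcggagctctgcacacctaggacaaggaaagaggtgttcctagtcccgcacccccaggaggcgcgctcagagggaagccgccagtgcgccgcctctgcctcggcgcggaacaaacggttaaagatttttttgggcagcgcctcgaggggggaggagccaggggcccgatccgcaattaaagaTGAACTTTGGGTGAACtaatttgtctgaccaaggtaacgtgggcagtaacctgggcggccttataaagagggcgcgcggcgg
The repeat was present in both, while Rarb rose with the share and Cyp26a1 had a slope close to 0 with an SE of 0.14. A match describes letters in a window and was not tested as a binding site.

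Sinusoidal endothelial genes rose as well. Of 14 members 13 rose with a median slope of 0.29, whereas 0 rose and 1 fell against the counts of both species (median -0.023), and 12 were higher in the group comparison. Their summed level was 860.0, 1288 and 1611 CPM under 60% and 1822, 2706 and 7990.3 CPM at 60% or more, without overlap, and 625, 716 and 759.7 CPM in Mu livers. With 1 liver left out, 12 to 14 members rose. Stab2, a scavenger receptor for hyaluronan, had 88.2, 132 and 175 CPM under 60% and 187, 289.8 and 980.0 CPM at 60% or more, with a slope of 0.34 (SE 0.042, adjusted p = 1.2e-04). The groups did not overlap for Stab2, nor for Bmp2, whose protein from endothelial cells controls iron metabolism in hepatocytes, at medians of 34.4 and 79.97 CPM. Pecam1 and Oit3 rose with slopes of 0.32 and 0.33, with a small overlap of the groups. Lyve1, a hyaluronan receptor, was the one member that did not pass (slope 0.13, adjusted p = 0.07). Flt4, a receptor of vascular growth factors, had the smallest slope of those called (0.10), and its adjusted p was 0.079 without ZT 2 replicate 2 and 0.122 without ZT 18 replicate 3.

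Most genes listed for signals from other liver cells to hepatocytes rose as well, and bulk RNA does not show which cells made them. The list of 21 ligands and modifiers was chosen after the data were seen and includes Hhip, described below. Of these 14 rose and none fell, with a median slope of 0.33, and 5 rose and 5 fell against the counts of both species. With 1 liver left out 11 to 15 rose. Wnt2 and Rspo3, the Wnt ligand and the Wnt enhancer of central vein endothelium, had 3.73, 7.67 and 11.1 CPM and 5.13, 14.3 and 18.3 CPM under 60%. At 60% or more they had 14.01, 26.3 and 108 CPM and 19.1, 44.8 and 157 CPM. Neither gene's groups overlapped, and both slopes were 0.52 (adjusted p = 3.1e-05 and 1.7e-05). Wnt9b rose from a median of 2.79 to 12.8 CPM. Among bone morphogenetic proteins, Bmp5 had medians of 24.9 and 81.4 CPM and Bmp10 of 8.75 and 28.1 CPM, without overlap, while Gdf2 (BMP9) had 47.02 and 128 CPM with groups that met at 60.4 to 61.6 CPM. Hgf, the growth factor that stellate cells give hepatocytes, rose from 17.2, 54.1 and 71.8 CPM to 65.2, 144 and 335 CPM (slope 0.47, adjusted p = 3.0e-04), and Tgfb1 rose with a slope of 0.33. Of 13 genes tested in a list of hepatocyte growth and liver size signals, 6 rose, among them Wnt2, Rspo3, Wnt9b and Hgf, and 2 fell, Fgfr4 and Myc (4 fell without ZT 2 replicate 1, and 1 without ZT 2 replicate 2 or ZT 6 replicate 1). Met, the Hgf receptor, had medians of 118 and 86.7 CPM (slope -0.17, adjusted p = 0.097), Egfr had a slope of -0.18 (adjusted p = 0.079), and Fgfr4, the receptor for the intestinal hormone FGF15, fell (slope -0.18, adjusted p = 0.0024) at group medians of 36.3 and 39.1 CPM, which ran the other way.

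Genes of hepatocytes around the central vein, several of them Wnt targets, were not among those that rose. Whether the ligands acted on these genes was not tested. Of 12 pericentral genes 2 fell, Gstm3 and Slc1a2, and none rose (median slope -0.11), a share close to the 18.3% of all genes that fell. Glul, glutamine synthetase, had medians of 148 and 241 CPM against 1165 CPM in Mu livers (slope 0.088, adjusted p = 0.12). Slc1a2, a glutamate transporter, was called at an adjusted p of 0.047 that exceeded 0.05 in 12 of 15 fits with 1 liver left out, the highest being 0.302 without ZT 6 replicate 1. Of 12 periportal genes 5 fell, led by Asl, Hsd17b13 and Ass1, with a median slope of -0.37. That count was 1 without ZT 2 replicate 2, 2 without ZT 6 replicate 1 or ZT 18 replicate 3, 3 without ZT 6 replicate 2, either replicate of ZT 14 or ZT 18 replicate 1, and 9 without ZT 10 replicate 1. Hsd17b13 was not called without ZT 2 replicate 2 or ZT 6 replicate 1.

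**Figure D3:**
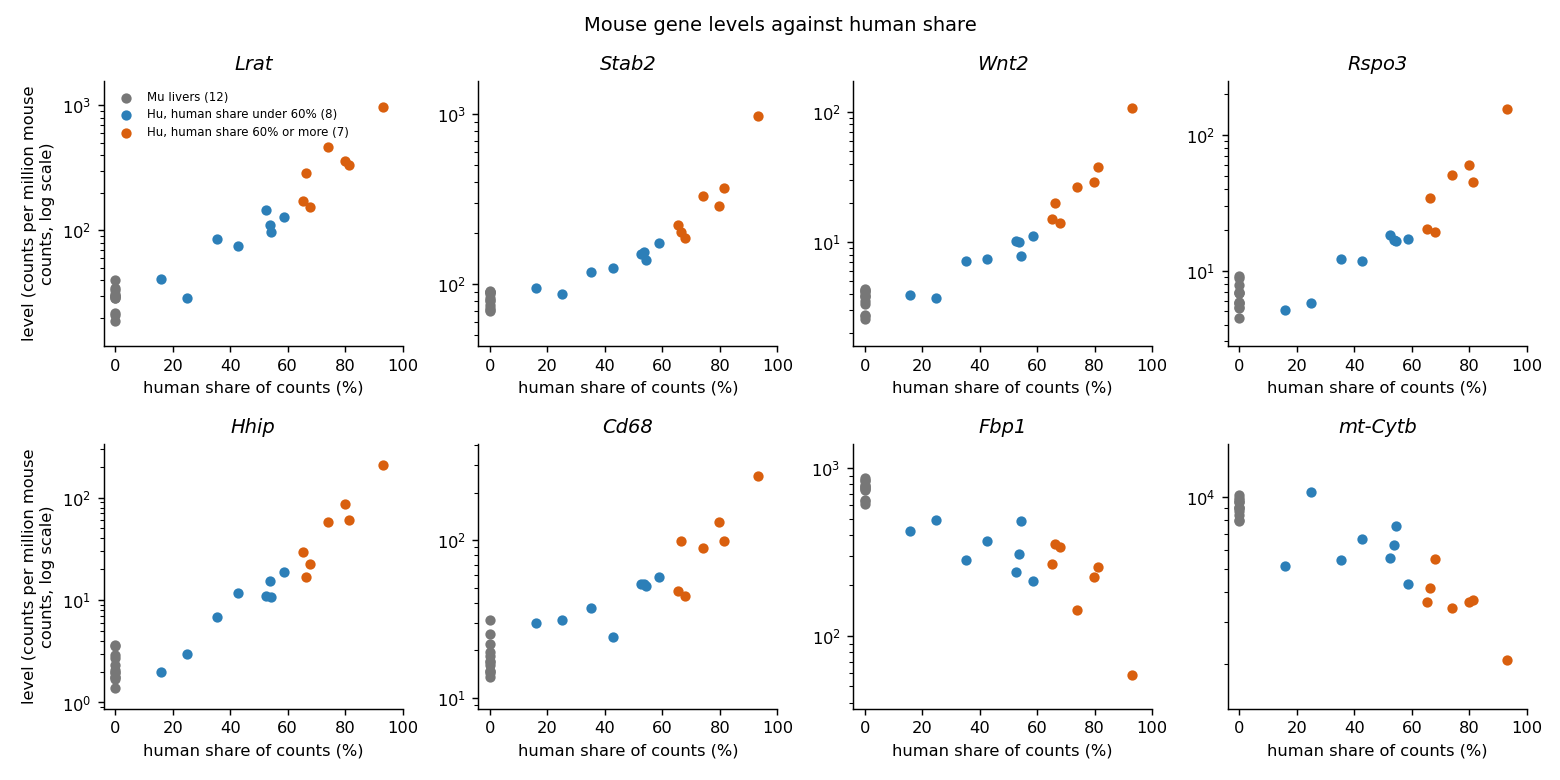
Level of 8 mouse genes in counts per M mouse counts (log axis) against human share in percent, 1 point per liver, with Mu livers at 0%. Lrat, Stab2, Wnt2, Rspo3, Hhip and Cd68 climb with the share, with Lrat reaching 979 CPM in ZT 18 replicate 3, while Fbp1 and mt-Cytb are lowest in that liver.

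Of genes called in both comparisons at a mean of 10 CPM or more, the largest slope was that of Hhip, a membrane protein that binds hedgehog ligands and is induced by them. It went from 1.98, 10.9 and 18.8 CPM under 60% to 16.7, 57.4 and 209.9 CPM at 60% or more, a ratio of medians of 5.28, with a slope of 0.78 (SE 0.055, adjusted p = 1.7e-05). The groups overlapped only between 16.7 and 18.8 CPM, and Mu livers had a median of 2.03 CPM. In a list of 14 hedgehog pathway genes, chosen after the data were seen and with Hhip itself counted, 12 rose and 1 fell. Their median slope was 0.32, and 1 rose and 3 fell against the counts of both species. Gli1, a transcription factor whose own gene is a target of the pathway, rose from a median of 1.67 to 4.91 CPM (slope 0.47, adjusted p = 1.7e-04). Ptch1, the receptor, did not overlap between the groups (67.7 CPM was the highest under 60% and 70.8 CPM the lowest at 60% or more), with a slope of 0.11 and an adjusted p of 0.014 that was 0.123 without ZT 2 replicate 2. The ligand Ihh fell from 1.79 to 0.836 CPM (adjusted p = 0.012, 0.063 without ZT 6 replicate 1), and these are levels of few counts.

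By the same rule Lrat and 6 other genes followed Hhip. They were Igfbp5 (0.61), which binds insulin-like growth factors, Tnc (0.57), Abi3bp (0.57), Thbs2 (0.57) and Col6a5 (0.56), all of the extracellular matrix, and Gpnmb (0.56), a glycoprotein of lipid-laden macrophages. Abi3bp levels did not overlap, at 1.94, 6.51 and 10.7 CPM under 60% and 13.1, 26.4 and 104 CPM at 60% or more. The smallest p-values among rising genes also included Nr1h5, a nuclear receptor related to the bile acid receptor, and Ngfr, the low affinity neurotrophin receptor, with slopes of 0.45 and 0.46. Nr1h5 had medians of 9.24 and 24.5 CPM without overlap, and Ngfr of 10.2 and 17.5 CPM with overlap.

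Of 14 Kupffer cell genes 9 rose, with a median slope of 0.21. Against the counts of both species 0 rose and 3 fell, beside 83 and 11279 of all 14755 genes. In the group comparison 2 of 14 were higher, Cd68 and Csf1r, beside 10.9% of all genes. Without ZT 18 replicate 3, 5 rose in the trend. Cd68, a lysosomal protein of macrophages, had 24.2, 44.1 and 58.2 CPM under 60% and 44.1, 98.5 and 255 CPM at 60% or more (slope 0.27, SE 0.053, adjusted p = 0.0021). C1qc, C1qa and Csf1r, a pair of complement subunits and the macrophage growth factor receptor, each rose with a slope of 0.24, at ratios of medians of 2.08, 2.12 and 2.16, and in the group comparison C1qc and C1qa had adjusted p-values of 0.0501 and 0.0543. Clec4f, the receptor that marks resident Kupffer cells, was not called, at medians of 229.8 and 323 CPM (adjusted p = 0.15), nor was Marco (slope -0.044, adjusted p = 0.83).

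Genes of recruited myeloid cells were split. Of 12, 6 rose and 1 fell (median slope 0.24). In the group comparison 2 were higher and 1 lower, beside 10.9% and 3.77% of all genes. In the trend 2 rose without ZT 2 replicate 2, and 0 rose and 3 fell against the counts of both species. Gpnmb went from 12.03, 50.2 and 75.5 CPM to 38.1, 203 and 448 CPM, and Trem2, a receptor of lipid-handling macrophages, from a median of 15.7 to 49.9 CPM (slope 0.36, adjusted p = 0.0025). Itgax rose (slope 0.32, 0.066 as its adjusted p without ZT 2 replicate 2), while the monocyte marker Ly6c2 fell from 8.23 to 3.49 CPM at an adjusted p of 0.025, which was 0.058 without ZT 2 replicate 2 and 0.169 without ZT 6 replicate 1. The neutrophil genes S100a8, S100a9, Ly6g and Retnlg were not called.

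Of 12 bile duct and progenitor genes 6 rose and 1 fell (median slope 0.16), and 0 rose and 5 fell against the counts of both species. In the group comparison 2 were higher, beside 10.9% of all genes. Without ZT 2 replicate 2 or ZT 18 replicate 3, 1 rose, and 2 rose without ZT 6 replicate 1 or ZT 18 replicate 1. Epcam, an adhesion molecule of bile duct epithelium, had medians of 13.4 and 24.6 CPM (slope 0.27, adjusted p = 0.026), and was not called without ZT 6 replicate 1 (0.069) or ZT 18 replicate 3 (0.181). The keratin Krt19 rose at an adjusted p of 0.031 that exceeded 0.05 in 6 of 15 fits with 1 liver left out. Sox9, a transcription factor of bile duct cells, was not called (28.2 and 38.5 CPM). The host lacks Rag2 and Il2rg, which lymphocytes need to develop, and of 11 lymphocyte genes with counts listed, 1 passed the filter, Cd4, called higher in the trend but in 3 of 15 fits with 1 liver left out. Their summed level was 0.701, 1.15 and 25.95 CPM under 60% and 0.736, 1.61 and 6.75 CPM at 60% or more. Of 6 red blood cell genes tested, 1 fell, the anion exchanger Slc4a1 (slope -0.62, adjusted p = 0.011, 0.114 without ZT 6 replicate 1), and 2 fell without ZT 2 replicate 1, either replicate of ZT 10 or ZT 14 replicate 2.

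Mouse hepatocyte genes fell or did not pass in the trend, and few passed in the group comparison, with 1 lower each in the lists of transcription factors, cytochromes P450 and fatty acid oxidation. Of 20 secreted hepatocyte proteins 8 fell and none rose, with a median slope of -0.29 and in the group comparison edgeR called 0 (2 at an unadjusted p under 0.05). Their summed level was 110299, 124201 and 152241 CPM under 60% and 24171, 112995 and 140073 CPM at 60% or more, so the groups overlapped, and the lowest value belonged to ZT 18 replicate 3. Without that liver 6 of 20 fell and the median slope was -0.16. The count was 3 without ZT 2 replicate 2, ZT 14 replicate 1 or ZT 18 replicate 1, 4 without ZT 6 replicate 2, ZT 14 replicate 2 or ZT 22 replicate 2, and 5 without ZT 2 replicate 3, ZT 6 replicate 1, ZT 10 replicate 2, ZT 18 replicate 2 or ZT 22 replicate 1. Without TMM scaling it was 3. Alb, albumin, had 53444, 60224 and 74961 CPM under 60% and 12029, 55622 and 74072 CPM at 60% or more and was not called (slope -0.29, adjusted p = 0.11). Vtn, vitronectin, fell with a slope of -0.43 (SE 0.087, adjusted p = 0.0024), from a median of 1009.6 to 706 CPM, and F2, prothrombin, from 839 to 604 CPM (slope -0.41). Hpx, hemopexin, fell at an adjusted p of 0.021. Vtn, F2 and Hpx were called whichever liver was left out.

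Among hepatocyte transcription factors 6 of 12 fell and none rose, with a median slope of -0.16, and 1 fell without ZT 2 replicate 2. Without TMM scaling 1 fell and 1 rose. Cebpa had 233, 256 and 313 CPM under 60% and 127, 198 and 271 CPM at 60% or more, and was lower in both comparisons (slope -0.20, adjusted p = 0.0055). The bile acid receptor Nr1h4 fell with a slope of -0.15 (adjusted p 0.068 without ZT 2 replicate 2 and 0.083 without ZT 6 replicate 1). Hnf4a, the central regulator of hepatocyte identity, was called at an adjusted p of 0.049 that exceeded 0.05 in 10 of the 15 fits with 1 liver left out.

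In gluconeogenesis and glycogen metabolism 7 of 10 fell (4 without ZT 2 replicate 2), led by Fbp1, a rate-controlling phosphatase, with 212, 337 and 493 CPM under 60% and 58.8, 256 and 354 CPM at 60% or more (slope -0.46, SE 0.084, adjusted p = 0.0014). G6pc, which releases free glucose, went from a median of 133 to 49.99 CPM (slope -0.56), and the glucose-6-phosphate transporter Slc37a4 had a slope of -0.28 at group medians of 59.9 and 67.4 CPM, which ran the other way. In fatty acid oxidation 10 of 14 fell, and 5 did without ZT 2 replicate 2 or without ZT 18 replicate 3. The dehydrogenases Acadl and Acadm had slopes of -0.23 and -0.30, and Fgf21, a hormone of the fasted or stressed liver, fell from 34.4 to 20.3 CPM, against 3.79 CPM in Mu livers. In the urea cycle 4 of 8 fell, among them Asl, Nags and Ass1 (slopes -0.38, -0.29 and -0.44). Nags was not called without ZT 2 replicate 2, nor Ass1 without ZT 2 replicate 2, ZT 6 replicate 1 or ZT 18 replicate 3, and in the list 1 fell without ZT 2 replicate 2 and 2 without ZT 6 replicate 1 or ZT 18 replicate 3.

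Of 20 cytochromes P450 7 fell and 1 rose, and the number that fell was 4 without ZT 2 replicate 2 or ZT 18 replicate 3 and 11 without ZT 10 replicate 1. Cyp4v3, a fatty acid hydroxylase, did not overlap between the groups, with 178 CPM as the lowest under 60% and 168 CPM as the highest at 60% or more (slope -0.29, adjusted p = 0.0056), and Cyp2j5 fell from 156 to 69.2 CPM. The exception was Cyp4b1, which rose from 12.9, 20.7 and 29.6 CPM to 25.7, 46.03 and 183 CPM (slope 0.33, adjusted p = 4.0e-04) and, alone of this family, was higher in the group comparison. In bile acid synthesis and transport 3 of 12 fell, Cyp7a1, Baat and Cyp7b1, with 1 left without ZT 6 replicate 1 and 5 without ZT 6 replicate 3 or ZT 10 replicate 1. Cyp7a1, the rate-limiting enzyme, was near the detection limit, with medians of 0.661 and 0.239 CPM against 27.4 CPM in Mu livers, and its adjusted p was 0.633 without ZT 6 replicate 1. In tyrosine breakdown 2 of 6 fell, Tat and Hgd (slopes -0.53 and -0.35), with 1 left without ZT 6 replicate 1. In sterol and fatty acid synthesis 4 of 17 fell, led by Sqle, Fdps and Scd1, beside 18.3% of all genes, and none did without ZT 18 replicate 3 (1 without ZT 2 replicate 1, 2 without ZT 10 replicate 2, and 7 without ZT 6 replicate 1 or ZT 10 replicate 1). Of 10 growth hormone dependent genes tested 3 fell, Ghr, Igfals and Cyp7b1 (1 without ZT 6 replicate 1). Igfals had group medians of 17.9 and 18.4 CPM against its slope of -0.32, and Ghr, the growth hormone receptor, had medians of 194 and 143 CPM (slope -0.27, adjusted p = 0.0052).

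All 13 protein genes of the mitochondrial genome fell, with a median slope of -0.36, and 11 to 13 did with 1 liver left out. With a replicate block 2 of 13 fell, beside 390 of all 14751 genes. mt-Cytb, cytochrome b, had 4315, 5932 and 10448 CPM under 60% and 2072, 3645 and 5479 CPM at 60% or more (slope -0.38, SE 0.077, adjusted p = 0.0024), with overlapping groups. The slopes of mt-Nd2, mt-Nd4 and mt-Co1 were -0.37, -0.34 and -0.32 (the last not called without ZT 2 replicate 2 or ZT 6 replicate 1), and mt-Nd6, the subunit encoded on the other strand, had -0.49. Levels of mt-Atp6 and mt-Co3, at medians of 3.33 and 4.19 CPM under 60%, were far below those of the other genes of the same genome, and near-identical copies in the nuclear genome can split such reads, so values of single mitochondrial genes are uncertain.

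Nuclear genes for mitochondrial proteins, taken by symbol pattern after the data were seen, are given next. Of 75 mitochondrial ribosomal proteins 61 fell and none rose (median slope -0.14), and 20 were lower in the group comparison. With 1 liver left out 42 to 66 fell. Without TMM scaling 14 fell and 3 rose, beside 735 and 6654 of all 14751 genes. Mrpl17 went from 40.5, 47.2 and 53.3 CPM to 32.9, 37.5 and 43.3 CPM, with a slope of -0.19 (SE 0.029, adjusted p = 4.4e-04), and Mrps12 and Mrpl33 had slopes of -0.20 and -0.14. Of 80 nuclear subunits of the respiratory chain 38 fell (median slope -0.16) and 42 did not pass, while in the group comparison edgeR called 0 lower (22 at an unadjusted p under 0.05, and 7 by DESeq2) and 1 higher, Cox4i2. The number that fell was 14 without ZT 18 replicate 3, 18 without ZT 2 replicate 2, 58 without ZT 6 replicate 3 and 62 without ZT 10 replicate 1. Without TMM scaling 13 fell and 1 rose. Ndufa6 of complex I had 59.3, 80.4 and 107 CPM and 43.6, 62.8 and 71.9 CPM in the livers under and above the threshold (slope -0.25, adjusted p = 5.6e-04), and Uqcrq of complex III and Atp5g2 of the ATP synthase had slopes of -0.31 and -0.15. Idh2, the mitochondrial isocitrate dehydrogenase, had the smallest p of the falling genes, with 84.8, 123 and 161 CPM under 60% and 65.9, 91.96 and 123 CPM at 60% or more (slope -0.29, SE 0.023, adjusted p = 1.7e-05).

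The largest negative slopes among genes called in both comparisons at a mean of 10 CPM or more were those of Cib3 (-1.00), a calcium and integrin binding protein, Cyp46a1 (-0.71), the cholesterol 24-hydroxylase, and Pglyrp2 (-0.58), a secreted amidase that cleaves bacterial peptidoglycan. Cib3 had 2.66, 11.5 and 86.02 CPM under 60% and 0.520, 2.71 and 7.41 CPM at 60% or more, a wide spread within the first group, and 43.4 CPM as the Mu median. Ren1, renin (-0.55), Ubd, a ubiquitin-like protein of inflammation (-0.52), Itih1, a plasma protease inhibitor chain (-0.49), mt-Nd6, and Soat2, which esterifies cholesterol (-0.48), followed. The groups overlapped for each of these 8 genes. Beside Idh2, the smallest p-values among falling genes were those of Tsta3, Atf4 and Pick1, with slopes of -0.20, -0.22 and -0.20, with Tsta3, an enzyme of GDP-fucose synthesis, at 29.7, 33.3 and 43.98 CPM under 60% and 25.5, 27.7 and 30.4 CPM at 60% or more.

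Most of the lists of growth and stress genes given here had few calls. Of 16 cell division genes edgeR called 0 (1 at an unadjusted p under 0.05, 1 by DESeq2, and 1 fell without ZT 14 replicate 1 or ZT 22 replicate 1), at medians for Mki67 of 27.8 and 33.5 CPM against 4.02 CPM in Mu livers. Of 14 p53 targets 1 rose, Ddit4l (adjusted p = 0.046, above 0.05 in 9 of 15 fits with 1 liver left out). Without TMM scaling 7 of them rose, beside 6654 of all 14751 genes. Cdkn1a, the p21 cell cycle inhibitor, had medians of 134 and 117 CPM against 22.5 CPM in Mu livers. Of 14 NRF2 targets 1 fell, Gstm3 (2 without ZT 6 replicate 2 or ZT 10 replicate 1), and of 10 fetal liver genes tested edgeR called 0 (1 at an unadjusted p under 0.05 and 2 by DESeq2), with Afp at 217 and 253 CPM and its single livers spread from 60.2 to 2438 CPM under 60%. The amino acid and unfolded protein response had more, with 4 of 14 lower in the trend and 3 in the group comparison, beside 18.3% and 3.77% of all genes. Atf4, Trib3 and Ddit3 were lower in both (slopes -0.22, -0.44 and -0.13), though Ddit3 medians of 16.1 and 18.3 CPM ran the other way. The transcription factor Atf4 had 111, 133 and 195 CPM under 60% and 99.2, 106 and 153 CPM at 60% or more.

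Interferon response genes were split, 2 higher and 2 lower of 12, with Bst2 and Rsad2 lower (slopes -0.16 and -0.29), and none of the 12 was called without ZT 2 replicate 2 (Bst2 at 0.062, Rsad2 at 0.0588). None rose without ZT 6 replicate 2, ZT 10 replicate 2, ZT 14 replicate 1, ZT 18 replicate 1 or ZT 18 replicate 3, and 1 rose without ZT 2 replicate 3, ZT 6 replicate 1, ZT 14 replicate 2, ZT 18 replicate 2 or ZT 22 replicate 2. Rsad2 had an adjusted p of 0.147 without ZT 2 replicate 1. Of 12 acute phase genes 4 fell, among them Itih4 (slope -0.43, adjusted p = 0.0036), Saa2 and Crp. Group medians of Itih4 were close, at 905 and 901 CPM, and Saa2 was a gene of few counts, at 1.11 and 0.460 CPM. Saa2 kept its call in 8 and Crp in 6 of 15 fits with 1 liver left out, and the group medians of Crp, 62.9 and 89.2 CPM, ran against its slope of -0.24. In the list 1 fell without ZT 2 replicate 1, ZT 2 replicate 2, ZT 6 replicate 1, ZT 6 replicate 2, ZT 18 replicate 1 or ZT 18 replicate 3, and 2 without ZT 6 replicate 3, ZT 10 replicate 2 or ZT 22 replicate 2. Of 17 ribosomal protein genes 8 fell (none without TMM scaling), led by Rps18, Rpl10a and Rpl8 (-0.15, -0.13 and -0.11), with group medians of Rps18 (127 and 137 CPM) and Rpl10a (135 and 138 CPM) that ran the other way, and these genes have many near-identical pseudogenes that could share reads. Of 18 clock genes 3 fell, among them Nfil3 and Hlf (slopes -0.26 and -0.21, with Hlf above 0.05 in 9 of 15 fits with 1 liver left out), a share close to the 18.3% of all genes that fell. The group medians of Hlf, 20.1 and 29.5 CPM, ran against its slope. The core clock gene Per2 differed in its group medians (19.5 and 74.7 CPM) while its slope after adjustment for time was -0.0097 (adjusted p = 0.93), and all livers of ZT 10 and 14 had a share of 60% or more.

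**Figure D4:**
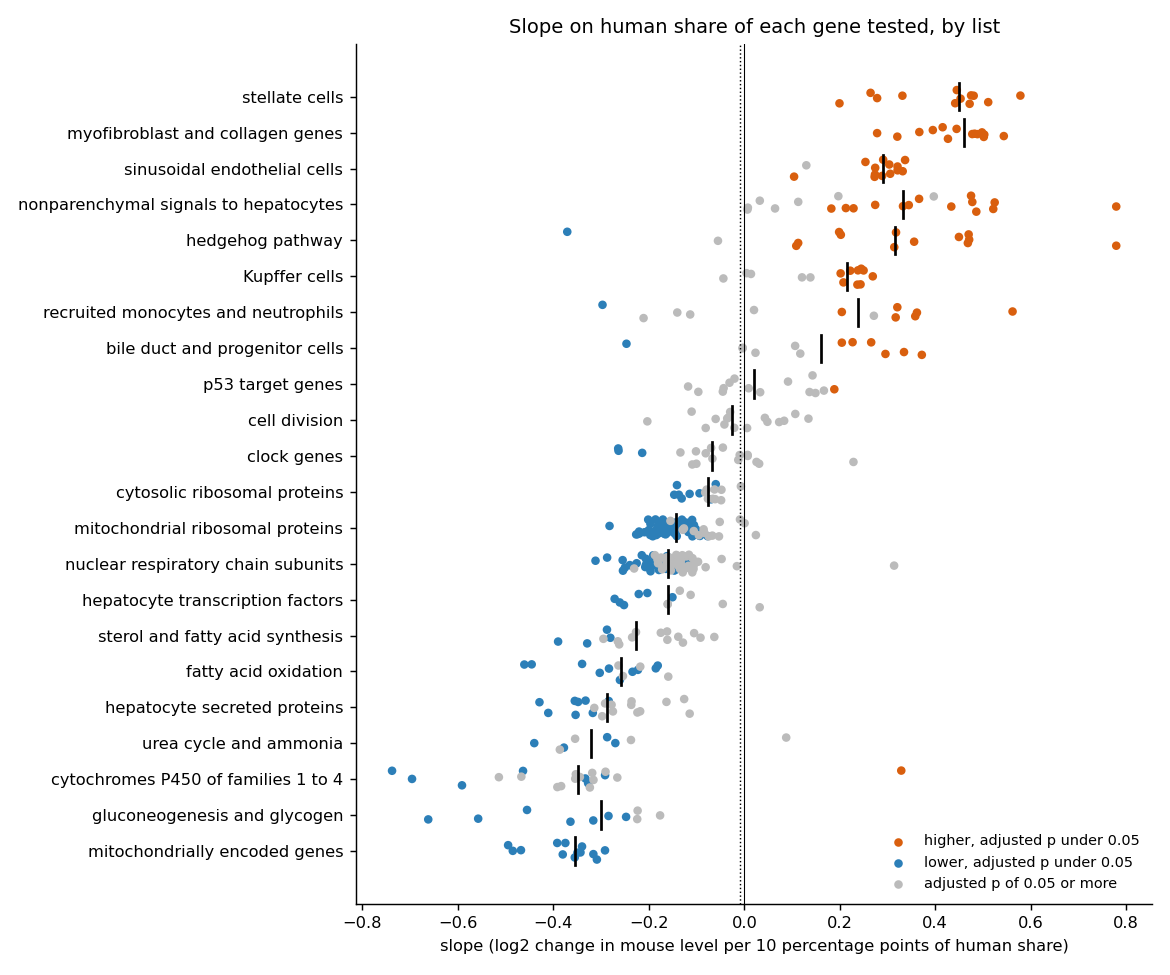
Slope of each tested gene on human share (log2 per 10 percentage points) in 22 lists, with black bars for list medians, a dotted line for the median of all genes, and colours for genes that rose, fell or did not pass an adjusted p of 0.05. Stellate, collagen and endothelial lists lie to the right of 0 with medians of 0.45, 0.46 and 0.29, and mitochondrially encoded genes lie to the left with a median of -0.36.

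Summed levels of the lists were also set against the counts of both species, as a description. Per M counts of both species the summed sinusoidal endothelial level was 625, 716 and 759.6 (lowest, median and highest) in Mu livers, 645, 689.5 and 811 in livers under 60% and 548, 595 and 715 in those of 60% or more. These ranges overlapped. The stellate sum had medians of 502, 555 and 608 in the same order, and the collagen list had 378, 598 and 574. Kupffer genes had 979, 1079 and 644, and secreted hepatocyte proteins had 146843, 70244 and 27219.6. Mu livers show how often mouse RNA was counted in human rows, a share of 0.00592 to 0.0204%, and human RNA counted in mouse rows was not tested.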

How the data were processed

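RNA-seq counts of 15 Hu and 12 Mu livers were used, with groups from the labels. The authors deposited a table of raw counts per gene with mouse and human rows, made from a strand-keeping kit per the labels' protocols. The submitters' processing notes name STAR and the builds GRCm38 (mm10), GRCh38 (hg38) and hg19, and the counting program and annotation are not given in the sources used here. Symbols were matched for 19615 of 19689 mouse rows.

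Mouse rows were filtered with filterByExpr, scaled by TMM over mouse counts and fitted with edgeR 4.0.16 (R 4.3.3, limma 3.58.1) by the quasi-likelihood test, with the human share or the 60% group and the cosine and sine of time over 24 h, over the Hu livers. P-values were Benjamini-Hochberg adjusted over 14751 genes at 0.05. Scripts were tested on simulated data. Alternatives included DESeq2 1.42.0, other scalings, filters, thresholds and leaving out each liver. CPM are counts per M mouse counts. Shares of single livers have 95% Wilson intervals.

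Named genes were those called in both comparisons with a mean of 10 CPM or more, namely the 8 with the largest slope and the 4 with the smallest p in each direction, and the 3 members of smallest p in each of 31 lists. Some genes that this rule names are not reported here. Other genes named were chosen after their values were seen. The members and lists were chosen with earlier results of these data known, and 5 more lists were added after seeing values. Promoters come from RefSeq, build GRCm38.p6.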

Additional observations from a re-analysis of the deposited data

Results flagged for a closer look

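A liver stood far from the others of its share group, by Dixon's ratio on log2 levels with a pseudocount of 0.5 CPM above its 95% critical value, in 28 of 276 pairs of a gene and a group and in 11 of 72 pairs of a list and a group. The critical value is set for about 1 in 20 groups of independent normal values. These genes were measured in the same livers and many were chosen for their slopes, so that rate is no reference for these counts. ZT 18 replicate 3, with a human share of 93.1% and 7.70 M mouse counts, was the liver concerned in 21 of the 28 pairs with a gene and 7 of the 11 with a list.

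Within the livers of 60% or more, ZT 18 replicate 3 was highest for Abi3bp (104), Bmp2 (174), Colec11 (757), Cyp4b1 (183), Gli1 (18.2), Oit3 (356), Rgs5 (2041), Slc1a2 (7.53) and Stab2 (980.0), all in CPM. It was lowest for Alb (12029), Baat (12.6), F2 (147), Hgd (34.4), Hnf4a (78.2), Hpx (605), Hsd17b13 (138), Igfals (2.21), Itih1 (23.5), Nags (6.75), Rbp4 (301) and Uqcrq (51.3), again in CPM. Of the summed lists it was highest for Kupffer cells (8348 CPM against a median of 2889 CPM) and sinusoidal endothelial cells (7990.3 CPM against a median of 2706 CPM). It was lowest for acute phase response (577 CPM), fatty acid oxidation (1320.1 CPM), hepatocyte secreted proteins (24171 CPM), hepatocyte transcription factors (453 CPM) and periportal zone genes (1295 CPM).

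Other livers stood apart for single items. ZT 6 replicate 1 was highest under 60% for Atf4 (195 CPM against a median of 133 CPM), Trib3 (130.3 CPM against a median of 46.5 CPM) and Cyp7a1 (9.64 CPM against a median of 0.661 CPM). ZT 2 replicate 1 was highest for Rsad2 (290.1 CPM against a median of 51.9 CPM). ZT 18 replicate 1 was highest for Alb (74961 CPM against a median of 60224 CPM) and for summed hepatocyte secreted proteins (152241 CPM), and lowest for summed NRF2 targets (14025 CPM against a median of 21294 CPM). ZT 22 replicate 1 was highest for summed growth hormone dependent genes (4628 CPM against a median of 3229 CPM) and ZT 6 replicate 2 for summed lymphocyte genes (25.95 CPM against a median of 1.15 CPM). At 60% or more, ZT 10 replicate 1 was highest for Atf4 (153 CPM against a median of 106 CPM) and ZT 14 replicate 1 for mt-Atp6 (3.91 CPM against a median of 1.82 CPM).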

How the results depend on the processing

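The count of calls depended on the processing more than the direction of most genes did. For the group comparison, edgeR called 2169 genes, DESeq2 3793, 3464 were called without TMM, 10406 against the counts of both species, 1444 at a mean of 10 CPM or more, 4173 without terms for time, 617 with time as a factor, 0 at a threshold of 50% (2231 at an unadjusted p under 0.05) and 3586 at 70%. With 1 liver left out it called 0 to 3884. For the trend, 5940 became 11362 against the counts of both species and 3405 to 6374 with 1 liver left out. It called 0 within the livers under 60% (2183 unadjusted) and 0 within those of 60% or more (1597 unadjusted), fits on fewer livers and a narrower range of share. Without the 2 livers of lowest mouse depth, an alternative chosen after seeing the data, the group comparison called 0 (3236 unadjusted) and the trend 2881. The cause of these differences was not tested.

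With a replicate block the group comparison called 0 (3105 unadjusted) and the trend 1450. Replicate 1 had the lowest share of its time at ZT 2, 6, 10, 14 and 22, so the block and the share cannot be fully told apart. Deviations from the time means, for livers with the same replicate number, correlated at a mean r of 0.155 over 33 pairs (-0.0862 over 60 other pairs). Of 15 livers 6 correlated best with their own number. These values do not settle whether the numbers pair the livers, and the main fits have no block.

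Slopes changed sign against the counts of both species for Reln (-0.040), Timp1 (-0.024), Bmp2 (-0.032), Flt4 (-0.20), Cd68 (-0.039), C1qc (-0.074), C1qa (-0.072), Csf1r (-0.065), Epcam (-0.061), Ptch1 (-0.19) and Ddit4l (-0.13), and within the livers of 60% or more for Ptch1 (-0.031), Ddit3 (0.052) and Bst2 (0.037). Of all trend calls, 2219 of 5929 changed sign against the counts of both species and 540 without TMM. Mouse depth, 7.70 to 87.9 M counts, limits low genes such as Cyp7a1 in the livers of high share.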

Other observations

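Within each share group alone no gene was called, and the signs of slopes are given as a description. Members of a list were measured in the same livers, so they are not separate observations. Among livers under 60% slopes were positive for 12 of 12 stellate genes, 14 of 14 sinusoidal endothelial genes and 14 of 14 collagen and myofibroblast genes. Their median slopes were 0.30, 0.17 and 0.40, beside 0.0055 for all genes. Among livers of 60% or more the same counts were positive, with medians of 0.51, 0.50 and 0.56, beside -0.0097 for all genes. That group includes ZT 18 replicate 3, with a share of 93.1%.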
